A study of Mus musculus with 6 samples.

Results

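Mitochondrial and peroxisomal fatty acid oxidation, with the target genes of the peroxisome proliferator-activated receptors (PPARs), was described in mouse kidney over the day through 31 genes. The genes were chosen by symbol, the FPKM values of all transcripts of a symbol were summed, and all 31 were found among the 51803 symbols of the deposited table. FPKM counts sequenced fragments per kilobase of transcript, scaled to the size of the library, so levels can be compared between genes. Of the 31 genes, 30 had a mean of at least 1 FPKM and entered the tests over 12709 genes. The liver-type fatty acid binding protein Fabp1 had a mean of 0.567 FPKM and was not tested.

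Kidneys of male BALB/c mice aged 8 weeks, kept under a light/dark cycle, gave total RNA for 6 strand-specific libraries, 1 for each zeitgeber time (ZT) collected every 4 h from ZT0 to ZT20. All 6 groups shared strain, sex and age, and differed in collection time. The study asked which kidney genes are rhythmic. Time was therefore tested as a wave of 24 h fitted over all 6 libraries with limma on log2(FPKM + 1), and each amplitude below is the fitted distance from mean to peak on that scale.

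Fatty acids are the main fuel of the proximal tubule, whose cells are rich in mitochondria and peroxisomes. A fatty acid is joined to coenzyme A, passed into the mitochondrion by the carnitine shuttle and shortened in a cycle of dehydrogenation, hydration, a second dehydrogenation and cleavage by a thiolase. Very long chains are shortened first in peroxisomes. PPARs bind DNA as partners of retinoid X receptors (RXRs), at direct repeats of the element AGGTCA with a single base between them, and are activated by fatty acids, so that many genes of their own breakdown are targets. Kidney levels of PPAR targets are known to respond to fasting and feeding.

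Sequence before the start sites was examined because the members are known as targets of such factors. RefSeq promoters on GRCm38.p6 were matched for 27 members, and the 250 bases before the start were searched on both strands. A member was counted if any of its promoters matched, while the share over all promoters counts single promoters. The member counts and these shares are therefore not in like units. The direct repeat, with at most 2 mismatches in its 12 fixed positions, was found in 3 of 27 members (Etfa, Fabp1 and Plin2) and in 3.24% of 32851 promoters. The single element AGGTCA was found in 6 members (Acadm, Acadvl, Cpt1a, Fabp1, Plin2 and Plin5) and in 14.0% of all promoters. The E-box CACGTG, bound by clock factors, was found in 0 of 27 members and in 6.02% of all promoters. The D-box (TTATGTAA, TTACATAA or TTACGTAA), bound by Dbp and its relatives, was found in 0 of 27 members and in 0.931% of all promoters. A match describes letters only, and some matches to the single element lie inside the direct repeats. Sequence farther upstream or after the start was not searched, so the counts speak only for these 250 bases.

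The 3 direct repeats are given here with their flanks, 5′ to 3′ along the gene's strand, with the matched 13 bases in capitals. Each matched on the opposite strand, so the element reads as TGACCT here. The stretches are chr4:86670264-86670293 on the minus strand for Plin2, chr6:71199803-71199826 on the plus strand for Fabp1 and chr9:55512300-55512329 on the minus strand for Etfa. The Fabp1 repeat had 1 mismatch, and the Plin2 and Etfa repeats had 2 each.
Plin2: cagctttcaGGACCCCTGACCTaagtcaga
Fabp1: gacaatcacTGACCTATGGCCTat
Etfa: cgcacacccTTACCTTTGCCCTactcccaa

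The upstream stretches from 250 to 51 bases before the start are shown for 3 of the 4 members with the smallest limma p, Acot1 (chr12:84009252-84009451, plus strand), Cpt1a (chr19:3323051-3323250, plus strand) and Acaa1b (chr9:119157144-119157343, minus strand). Capitals mark the single element. Cpt1a held it in this stretch, and the Acot1 and Acaa1b stretches held no match to it. The Cpt1a stretch lies before the RefSeq start but inside the gene's GENCODE M21 extent, which begins at 3322334. The stretch of the other member, Eci2, overlaps an annotated exon and is not shown.
Acot1: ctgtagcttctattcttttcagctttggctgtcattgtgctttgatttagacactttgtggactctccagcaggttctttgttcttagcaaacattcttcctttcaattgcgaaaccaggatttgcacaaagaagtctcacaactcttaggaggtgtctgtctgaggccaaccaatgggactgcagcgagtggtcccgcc
Cpt1a: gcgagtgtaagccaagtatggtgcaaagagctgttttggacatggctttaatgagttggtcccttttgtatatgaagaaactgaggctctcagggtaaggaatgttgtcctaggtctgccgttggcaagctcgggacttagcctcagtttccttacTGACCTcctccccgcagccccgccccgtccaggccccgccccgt
Acaa1b: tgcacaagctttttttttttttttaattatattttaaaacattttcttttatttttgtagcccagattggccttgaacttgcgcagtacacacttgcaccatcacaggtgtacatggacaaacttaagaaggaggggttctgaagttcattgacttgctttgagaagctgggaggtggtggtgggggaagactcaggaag

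The libraries were alike in scale, with summed FPKM between 534448 and 577493, of which transcripts of the mitochondrial genome took 22.2% at ZT20 to 28.6% at ZT4. Depth is unknown, since FPKM holds no counts, so no counting interval could be given. The time labels were checked with clock genes. All 15 clock genes tested had an unadjusted limma p under 0.05. Arntl was highest at ZT20 (10.7 FPKM) and lowest at ZT8 (0.371), Nr1d1 was highest at ZT4 (40.0) and lowest at ZT20 (1.14), Dbp was highest at ZT8 (65.9), and Per2 was highest at ZT16 (11.8). Proximal tubule markers of S1 and S2 were all measured, with a summed level of 3131 to 3575 FPKM. Single markers moved in opposite directions within this sum: Slc5a12 was lowest at ZT20 (83.3 FPKM) and Miox highest there (1232). Of the 12 markers, 7 had an unadjusted limma p under 0.05 (58.3%, against 19.1% of all genes). Their peaks fell from ZT0 to ZT12 for 4 and from ZT12 to ZT24 for 3, against 7.94% and 11.2% of all genes. The 7 adrenal and 7 skeletal muscle markers all had means below 1 FPKM. In whole kidney, fewer cells of a type and less RNA per cell cannot be told apart.

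None of the 30 members passed the Benjamini-Hochberg adjusted limma p of 0.05, where 36 of 12709 genes did (0.283%). At an unadjusted p under 0.05 there were 10 of 30 members (33.3%), against 19.1% of all genes. Of these, 4 members (13.3%, Cpt1a, Cpt2, Vnn1 and Eci2) had a fitted peak from ZT0 to ZT12, against 7.94% of all genes, and 6 (Acot1, Acot2, Acot3, Acaa1b, Acsl1 and Eci1) had a peak from ZT12 to ZT24, against 11.2%. The count of 10 was 1 when ZT20 was left out and 6 when ZT16 was left out. Over all genes, the count of 2428 fell to 1157 without ZT20 and to 1618 without ZT16. The median amplitude was 0.17 over members and 0.13 over all genes tested, and the median of the highest over the lowest FPKM was 1.38 and 1.35. Members were high genes, with a median of 58.8 FPKM against 9.03. For 23 of the 31 members 1 transcript held at least 80% of the gene's FPKM. The extents of 8 members (Acadvl, Acot3, Ucp2, Hadha, Etfb, Etfdh, Acaa1a and Acaa1b) overlap another coding gene, and it is not stated whether strand was used in counting, so reads there may belong to either.

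**Figure D1:**
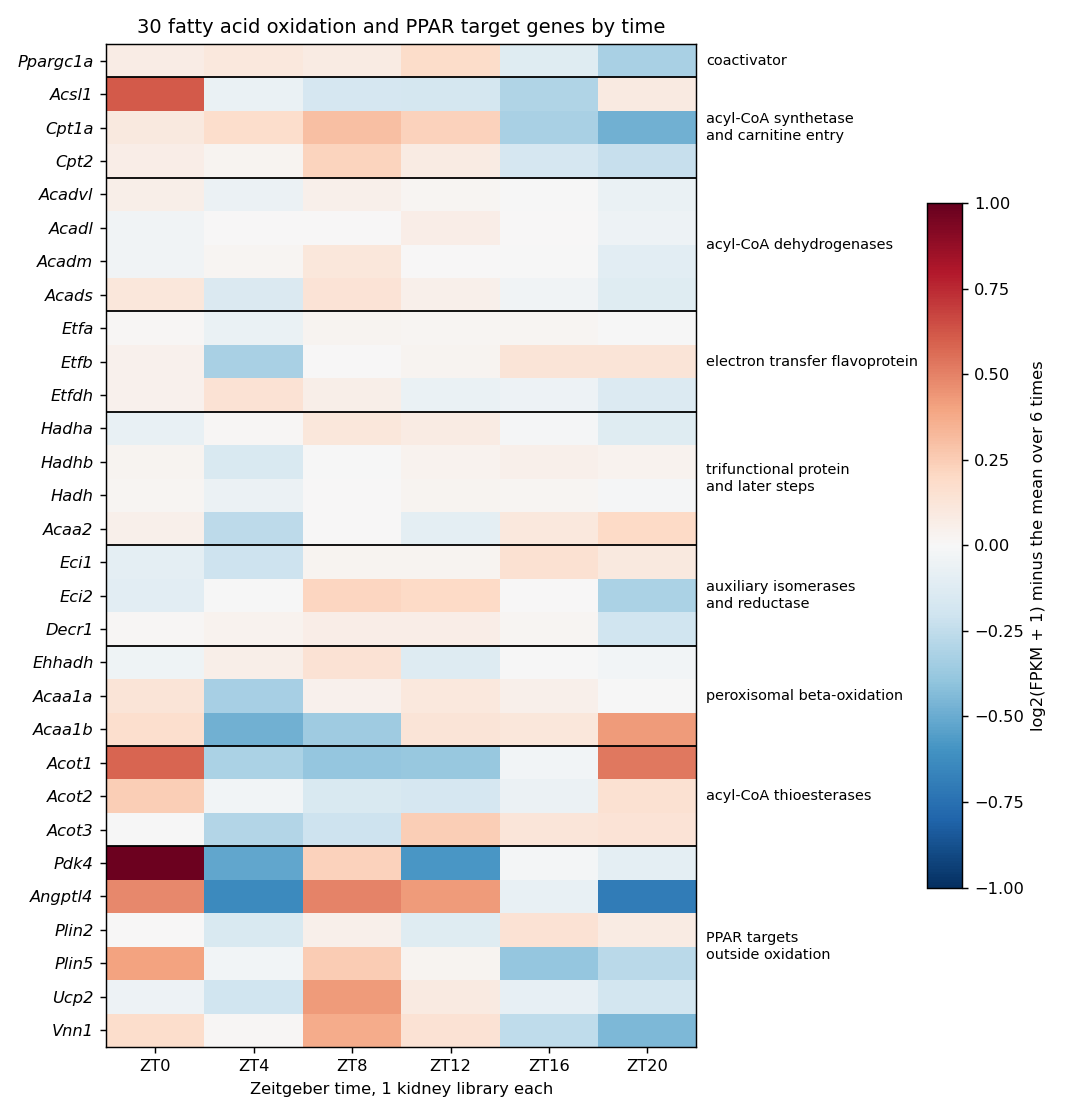
Each cell gives log2(FPKM + 1) of a gene at one zeitgeber time minus its mean over the 6 times, for 30 genes grouped by role (1 library per time). The strongest colours are those of Pdk4, Angptl4, Acsl1 and Acot1, and the acyl-CoA dehydrogenases are pale throughout.

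Ppargc1a, the coactivator PGC-1α that works with PPARs and drives mitochondrial genes, measured 14.7, 15.0, 14.7, 15.9, 12.7 and 10.9 FPKM from ZT0 to ZT20. Its 4 values from ZT0 to ZT12 lay close together, and those at ZT16 and ZT20 were lower. Its amplitude was 0.20 ± 0.07 (SE), with an unadjusted limma p of 0.0863, and without the ZT0 library this p was 0.0336. Without ZT20 the amplitude was 0.11 and the p 0.471.

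The genes of entry into oxidation differed in their times. Acsl1, a long-chain acyl-CoA synthetase that activates fatty acids, measured 67.5, 41.9, 39.0, 38.8, 35.5 and 46.8 FPKM from ZT0 to ZT20. Cpt1a, the malonyl-CoA-sensitive transferase of the outer mitochondrial membrane, measured 108, 113, 124, 118, 79.7 and 71.4 FPKM. Cpt2, its partner on the inner membrane, measured 76.8, 74.6, 85.9, 77.8, 65.1 and 62.4 FPKM. Acsl1 was highest at ZT0, when its level was 1.90 times that at ZT16, whereas both transferases were highest at ZT8 and lowest at ZT20.

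The fitted peak of Cpt1a was ZT6.92 ± 0.772 h (SE) and its amplitude 0.38 ± 0.08, a 1.70-fold fitted distance from trough to peak (limma p = 0.00653, adjusted p = 0.158, exact permutation over 60 orders p = 0.0833). Cpt2 peaked at ZT6.99, with an amplitude of 0.19 ± 0.06 (limma p = 0.0334, adjusted p = 0.232, exact permutation p = 0.150). Acsl1 peaked at ZT23.9, with an amplitude of 0.34 ± 0.10 (limma p = 0.0428, adjusted p = 0.25, exact permutation p = 0.117). These calls depended on single libraries, while the amplitudes stayed between 0.31 and 0.43 for Cpt1a and between 0.17 and 0.25 for Cpt2 whichever library was left out. The amplitude of Acsl1 was 0.16 without ZT0 and 0.31 to 0.46 without any other library. Without ZT20 the limma p was 0.0538 for Cpt1a, 0.189 for Cpt2 and 0.0651 for Acsl1, and without ZT16 it was 0.104 for Cpt2 and 0.082 for Acsl1. Without ZT8 it was 0.147 for Cpt2 and 0.0896 for Acsl1, without ZT12 it was 0.064 for Cpt2, and without ZT0 it was 0.225 for Acsl1.

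**Figure D2:**
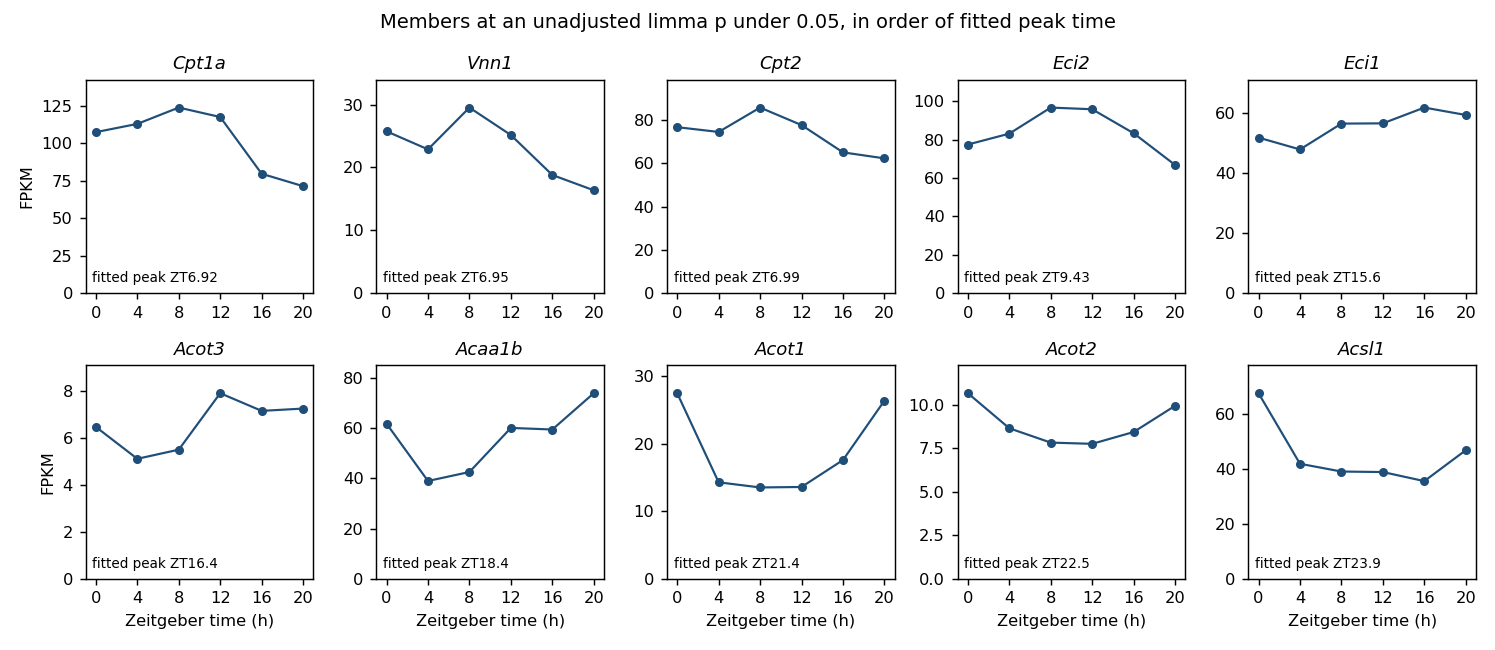
FPKM (vertical axis from 0) against zeitgeber time in hours for the 10 members with an unadjusted limma p under 0.05, each point 1 library, in order of fitted peak. Cpt1a, Vnn1, Cpt2 and Eci2 are highest at ZT8, and Acot1, Acot2, Acaa1b and Acsl1 have their 2 highest values at ZT20 and ZT0.

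The acyl-CoA dehydrogenases, which take the first electrons from the chain, varied little. Acadm, the medium-chain enzyme, was the highest member of all, from 514 FPKM at ZT20 to 597 at ZT8. Acadl and Acadvl, for long and very long chains, spanned 168 to 182 and 93.9 to 102 FPKM, and the short-chain Acads spanned 43.7 to 53.2 FPKM. Each gene's highest value was 1.09 to 1.22 times its lowest. The largest amplitude of the 4 was 0.08, for Acadm (exact permutation p = 0.0333), and the unadjusted limma p lay between 0.235 and 0.884.

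Electrons from these enzymes pass through the electron transfer flavoprotein. Its α subunit Etfa spanned 250.4 to 266 FPKM, a ratio of 1.06, and Etfdh, which hands the electrons to ubiquinone, spanned 75.7 to 92.2 FPKM. The β subunit Etfb measured 321, 248, 312, 318, 341 and 340.0 FPKM from ZT0 to ZT20. Its ZT4 value stood below the other 5, which lay within 312 to 341. Etfb had an amplitude of 0.18 ± 0.06 and a limma p of 0.0816, and Etfdh 0.12 ± 0.04 and 0.0871. The limma p of Etfb was 0.0296 without the ZT8 library, and without ZT4 its amplitude was 0.08 and the p 0.25.

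Later steps of the cycle varied more between genes. Hadha and Hadhb encode the subunits of the trifunctional protein, and their genes lie head to head on chromosome 5 (30118304 to 30155162 on the minus strand and 30155248 to 30184593 on the plus strand, GRCm38, GENCODE M21). Hadha measured 73.7, 78.3, 84.3, 82.5, 76.9 and 71.4 FPKM from ZT0 to ZT20, a small and smooth course whose highest value was 1.18 times its lowest. A cosine took a share of 0.988 of its variance, with an amplitude of 0.12 ± 0.04, an exact permutation p of 0.0167, the smallest that 60 orders allow, and a limma p of 0.0567 (adjusted p = 0.272). The unadjusted p of Hadha was under 0.05 in 5 of 17 alternatives and not in the other 12. It was 0.0397 by limma without ZT4 and 0.00134 by ordinary least squares. Its most abundant transcript held 60.4% of the FPKM, and for that transcript alone the amplitude was 0.09 with a limma p of 0.266. Hadhb spanned 55.2 FPKM at ZT4 to 63.5 at ZT16 (exact permutation p = 0.0333). Thus the neighbours had fitted peaks at ZT9.29 and ZT16.4, a difference in time that was not tested. Hadh, the dehydrogenase for shorter chains, spanned 209 to 222 FPKM. Acaa2, the mitochondrial thiolase, measured 54.9, 44.1, 53.0, 49.5, 57.0 and 60.95 FPKM, lowest in the ZT4 library (amplitude 0.16 ± 0.06), and its limma p was 0.106. Its amplitude was 0.26 without ZT8, where the p was 0.00911, and 0.11 without ZT4, where the p was 0.169.

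Auxiliary enzymes prepare unsaturated chains for the cycle. The isomerase Eci2 measured 77.4, 83.1, 96.6, 95.8, 83.3 and 66.8 FPKM from ZT0 to ZT20, with its 2 highest values at ZT8 and ZT12. Its fitted peak was ZT9.43 ± 0.770 h and its amplitude 0.24 ± 0.05 (limma p = 0.00646, adjusted p = 0.158, exact permutation p = 0.0333). Its FPKM was spread over 14 transcripts, of which the most abundant held 30.7%, and for that transcript alone the amplitude was 0.15 with a limma p of 0.142. Without ZT20 the limma p of Eci2 was 0.0502. Eci1, the related mitochondrial isomerase, measured 51.8, 47.9, 56.5, 56.6, 61.8 and 59.3 FPKM. It was lowest at ZT4 and highest at ZT16, with a fitted peak at ZT15.6, an amplitude of 0.15 ± 0.05, a limma p of 0.0464 and an adjusted p of 0.255. Its unadjusted p was 0.0996 without ZT0, 0.18 without ZT4, 0.0501 without ZT12, 0.177 without ZT16 and 0.106 without ZT20. Decr1, the dienoyl-CoA reductase, spanned 53.8 FPKM at ZT20 to 65.2 at ZT8, with an amplitude of 0.10, a limma p of 0.194 and an exact permutation p of 0.0167. Without ZT20 the amplitude of Decr1 was 0.04 and the limma p 0.797.

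In peroxisomal oxidation, the bifunctional enzyme Ehhadh spanned 238 FPKM at ZT12 to 287 at ZT8, with a limma p of 0.494. The thiolase Acaa1b measured 61.8, 39.0, 42.6, 60.1, 59.5 and 74.0 FPKM from ZT0 to ZT20. Its close copy Acaa1a spanned 34.8 to 48.3 FPKM. Both were lowest at ZT4, and Acaa1b alone of the pair was also low at ZT8. Acaa1b peaked at ZT18.4 ± 0.832 h with an amplitude of 0.40 ± 0.09 (limma p = 0.00946, adjusted p = 0.171, exact permutation p = 0.183), and without ZT20 the limma p was 0.0596.

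The pair can share reads. Of all 50-base windows of their most abundant transcripts, 34.0% of those of Acaa1a and 35.5% of those of Acaa1b were identical to the other gene, so the split between them is uncertain. Their sum measured 110.1, 73.8, 87.9, 108, 105 and 118 FPKM, again lowest at ZT4. The genes lie on chromosome 9 of GRCm38, Acaa1b at 119148023 to 119157093 on the minus strand and Acaa1a at 119339676 to 119350299 on the plus strand.

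Acyl-CoA thioesterases release free fatty acids from coenzyme A, and Acot1 (cytosolic), Acot2 (mitochondrial) and Acot3 (peroxisomal) sit in a cluster on chromosome 12. Acot1 measured 27.5, 14.3, 13.5, 13.6, 17.6 and 26.4 FPKM from ZT0 to ZT20. Acot2 measured 10.7, 8.66, 7.84, 7.77, 8.45 and 9.96 FPKM. Acot3 measured 6.46, 5.11, 5.50, 7.90, 7.15 and 7.25 FPKM. Acot1 and Acot2 shared the order of high values at ZT20 and ZT0 and low values at ZT8 and ZT12, while Acot3 was low at ZT4 and ZT8 and highest at ZT12.

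Acot1 had the largest amplitude among the 30 members, 0.55 ± 0.09, with a fitted peak at ZT21.4 ± 0.596 h and a 2.14-fold fitted distance from trough to peak (limma p = 0.00165, adjusted p = 0.109, exact permutation p = 0.05). It was the only member with an unadjusted limma p under 0.05 under all 17 alternatives, and its limma adjusted p over them ranged from 0.0703 to 0.441. Acot2 peaked at ZT22.5 with an amplitude of 0.21 ± 0.05 (limma p = 0.0126, adjusted p = 0.175, exact permutation p = 0.0167). Without ZT0 the limma p of Acot2 was 0.0729, and without ZT20 it was 0.0521, with amplitudes of 0.18 and 0.22. Acot3 peaked at ZT16.4 with an amplitude of 0.24 ± 0.07 (limma p = 0.0361, adjusted p = 0.236, exact permutation p = 0.167), and the limma p was 0.0882 without ZT20, 0.091 without ZT8 and 0.18 without ZT4.

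The cluster runs in the order Acot2, Acot1, Acot4, Acot3, Acot5 and Acot6 on the plus strand, from 83987861 to 84111349. Of the 50-base windows of the most abundant transcript, 32.1% for Acot1, 27.6% for Acot2 and 14.4% for Acot3 were identical to another gene of the 6, and 23.7% of those of Acot1 were identical to Acot2. The division of reads among these genes is therefore uncertain. Summed over the 6 genes the levels were 67.6, 49.4, 45.1, 49.8, 57.6 and 68.5 FPKM from ZT0 to ZT20, a range of 1.52-fold with the 2 highest values at ZT20 and ZT0.

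**Figure D3:**
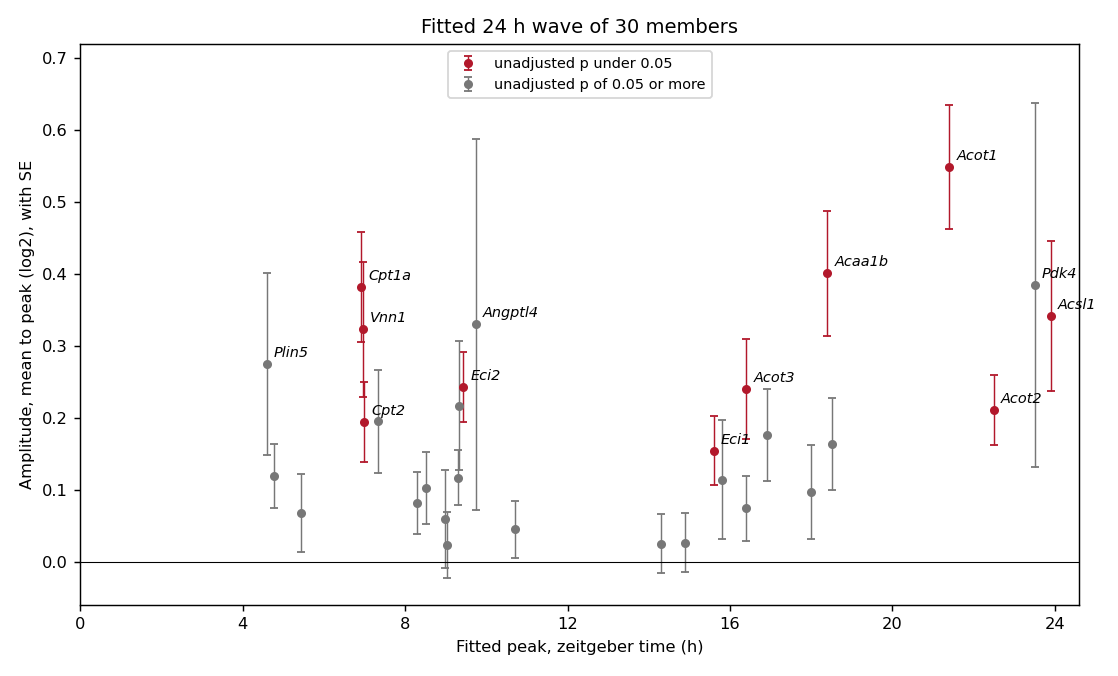
Amplitude of the fitted 24 h wave (log2, mean to peak, with SE) against fitted peak time in hours for 30 members, in red those with an unadjusted limma p under 0.05. Cpt1a, Vnn1 and Cpt2 lie near ZT7, and Acot1, Acot2 and Acsl1 between ZT21.4 and ZT23.9, while Pdk4 and Angptl4 combine large amplitudes with wide errors.

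Among PPAR targets outside the oxidation cycle, several genes had values that a single daily wave described poorly or only in part. Pdk4, a kinase that inhibits the pyruvate dehydrogenase complex and spares glucose, measured 13.5, 4.13, 7.63, 3.91, 6.23 and 5.86 FPKM from ZT0 to ZT20. Angptl4, a secreted inhibitor of lipoprotein lipase, measured 14.1, 5.95, 14.3, 13.5, 9.28 and 5.64 FPKM. Plin5, a lipid droplet protein at contacts with mitochondria, measured 2.56, 1.64, 2.21, 1.74, 1.06 and 1.23 FPKM. The ZT0 library was the highest for Pdk4 and Plin5, and all 3 genes were lower at ZT4 than at ZT0 or ZT8.

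The highest value was 3.44 times the lowest for Pdk4, 2.53 times for Angptl4 and 2.42 times for Plin5, and with Acot1 (2.03 times) these were the members with a ratio of at least 2, 4 of 30 (13.3%) against 11.3% of all genes. The mean of Plin5, 1.74 FPKM, lay near the filter of 1 FPKM. The wave took a share of 0.273 of the variance of Pdk4, 0.209 of that of Angptl4 and 0.499 of that of Plin5. The limma p was 0.372, 0.483 and 0.172, in that order. Single libraries decided these values. The amplitude of Angptl4, 0.33 ± 0.26, was 0.80 without ZT0, where the p was 0.00177, and 0.15 without ZT20, where the p was 0.84. That of Pdk4, 0.39 ± 0.25, was 0.69 without ZT4, where the p was 0.0282, and 0.05 without ZT0, where the p was 0.963. That of Plin5, 0.28 ± 0.13, was 0.47 without ZT4, where the p was 0.0196, and 0.20 without ZT16, where the p was 0.532. With 1 library per time, a value particular to 1 library cannot be told apart from an effect of its collection time.

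Vnn1, a pantetheinase that returns pantothenate from coenzyme A breakdown, measured 25.8, 22.9, 29.5, 25.2, 18.8 and 16.4 FPKM from ZT0 to ZT20. It was highest at ZT8 and lowest at ZT16 and ZT20, as the transferases of the carnitine shuttle were. Its amplitude was 0.32 ± 0.09 with a peak at ZT6.95 (limma p = 0.0359, adjusted p = 0.236, exact permutation p = 0.200), and the limma p was 0.104 without ZT16, 0.21 without ZT20, 0.173 without ZT8 and 0.0675 without ZT12. Ucp2, a carrier of the inner mitochondrial membrane, measured 68.6, 61.6, 95.5, 75.4, 67.1 and 62.5 FPKM, so that ZT8 stood above the other 5 libraries. Its amplitude was 0.22 ± 0.09 with a limma p of 0.127. Without ZT4 the p was 0.0052, and without ZT8 the amplitude was 0.09 and the p 0.399. The lipid droplet coat protein Plin2 spanned 6.49 to 8.202 FPKM. Fabp1 lay between 0.175 and 0.871 FPKM in every library.

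Some orders of the values recurred, and they were counted after the values were seen. ZT16 and ZT20 were the 2 lowest for 5 of 30 members (16.7%, Ppargc1a, Cpt1a, Cpt2, Plin5 and Vnn1), against 14.1% of all genes. ZT20 and ZT0 were the 2 highest for 4 members (13.3%, Acot1, Acot2, Acaa1b and Acsl1), against 10.8%. Both shares lie near the background. ZT8 was the highest time for 12 members (40.0%), against 14.1% of all genes. These were Cpt1a, Cpt2, Acadm, Acads, Ehhadh, Hadha, Eci2, Decr1, Angptl4, Ucp2, Vnn1 and Etfa. Some of these maxima were near ties, such as Etfa (266.5 FPKM, against 264.9 at ZT16), Decr1 (65.21, against 65.08 at ZT12) and Angptl4 (14.25, against 14.1 at ZT0). Others were wider, such as Ucp2 (95.5, against 75.4 at ZT12). ZT4 was the lowest for 12 members (40.0%), against 25.8%. These were Acads, Hadhb, Hadh, Acaa2, Eci1, Etfa, Etfb, Acaa1a, Acaa1b, Acot3, Plin2 and Ucp2. Near ties also occurred among these minima, such as Plin2 (6.487 FPKM, against 6.658 at ZT12), Ucp2 (61.59, against 62.46 at ZT20) and Acads (43.65, against 44.36 at ZT20). A wider one was that of Etfb (248, against 312 at ZT8). The ZT4 share was 23.3% against 19.8% once a trend of each library on transcript length was removed, an alternative added after the data were seen. The ZT8 share was not recounted in this way.

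Cell markers moved with some of these times. In the ZT20 library, all 5 podocyte markers, all 7 endothelial markers and 6 of 7 markers of smooth muscle and fibroblasts had their highest value. Without that library Acot1 alone of the members had an unadjusted limma p under 0.05. Over all genes 1157 did, against 2428 with it. The summed podocyte level ranged from 25.3 FPKM at ZT12 to 77.8 at ZT20, the endothelial level from 62.7 at ZT8 to 120.0 at ZT20, and that of 5 blood cell genes from 124 at ZT8 to 314 at ZT16. The summed level of the 9 S3 segment markers ranged from 1360 FPKM at ZT20 to 1813 at ZT4. Of these markers, Slc22a7, Slc5a8, Cyp7b1, Slc5a10 and Slco1a6 were lowest at ZT20. Slc22a13 was highest there, and Slc7a13, Atp11a and Slc16a9 were lowest at other times. In the ZT8 library, all 6 white fat markers with a mean below 1 FPKM were highest. There Adipoq measured 0.667 FPKM, Cidec 1.88 and Cfd 1.32, while in the other 5 libraries Adipoq did not exceed 0.0432. Of the 3 with a mean of at least 1 FPKM, Car3 was highest at ZT4 (14.1 FPKM) and Lipe at ZT0 (8.12). Fabp4 was highest at ZT8 (57.1 FPKM, against 56.1 at ZT20). The summed level of the 9 white fat markers, which include Fabp4, was 59.3 at ZT0 to 81.6 at ZT8, and that of the 6 brown fat markers 10.3 at ZT4 to 15.99 at ZT8. Of the brown fat markers, Ucp1 and Elovl3 were listed at 0 in every library, Cidea and Dio2 had means below 1 FPKM, Cox8b lay between 0.866 and 1.68 FPKM, and Cox7a1 between 9.31 and 15.0. The part of these cell types in the members' values was not tested.

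**Figure D4:**
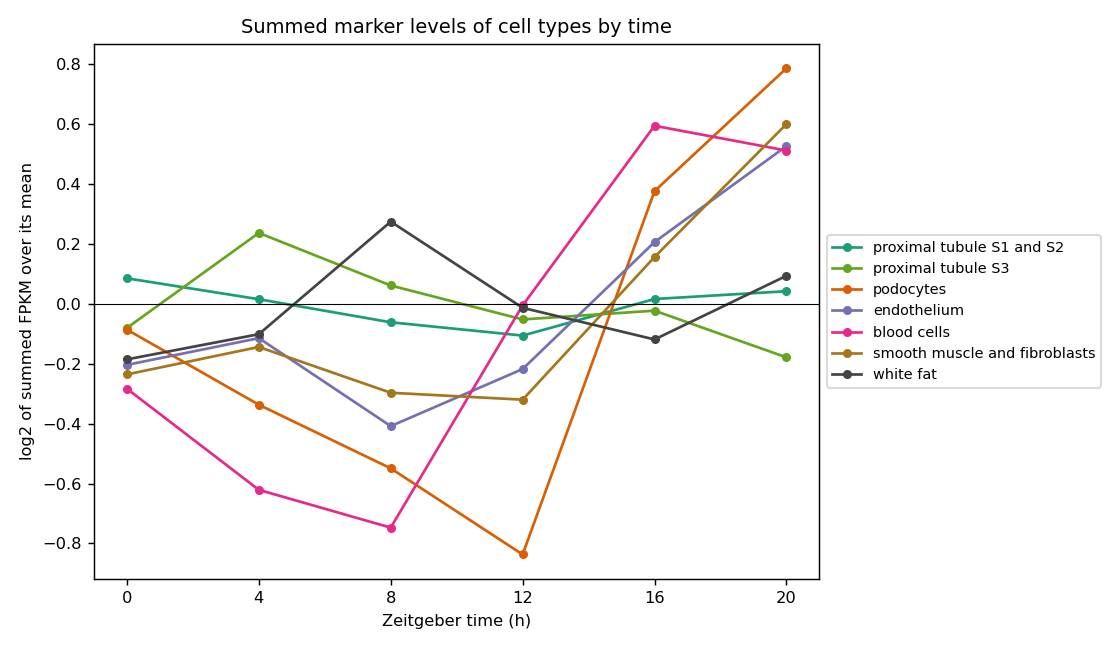
Summed FPKM of the marker genes of 7 cell types at each zeitgeber time, as log2 of the sum over its own mean (1 library per time). The sums of podocyte, endothelial, and smooth muscle and fibroblast markers are highest at ZT20. The sum of S3 markers is lowest there, and that of white fat markers is highest at ZT8.

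The receptors themselves differed. Ppard, the PPARδ receptor, measured 18.4, 10.2, 4.19, 4.21, 6.42 and 20.3 FPKM from ZT0 to ZT20. It was high at ZT20 and ZT0 and low at ZT8 and ZT12, and it passed the adjusted threshold (amplitude 1.149 ± 0.10, peak ZT22.6, limma adjusted p = 0.0326, exact permutation p = 0.0667). Ppara, the receptor most tied to fatty acid oxidation, lay between 9.67 FPKM at ZT4 and 14.8 at ZT12, with a limma p of 0.396. Rxra spanned 25.4 to 31.6 FPKM (limma p = 0.0505, exact permutation p = 0.0833) and Rxrb 12.6 to 15.1 FPKM (limma p = 0.314, exact permutation p = 0.150). Pparg, at 0.619 to 1.31 FPKM, and Rxrg, at or below 0.0666, were too low to be tested. Of the members, Acot1, Acot2, Acaa1b and Acsl1 had their 2 highest values at the same times as Ppard, with amplitudes from 0.21 to 0.55. That order was held by 13.3% of members and 10.8% of all genes, and a link to Ppard was not tested.

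**Figure D5:**
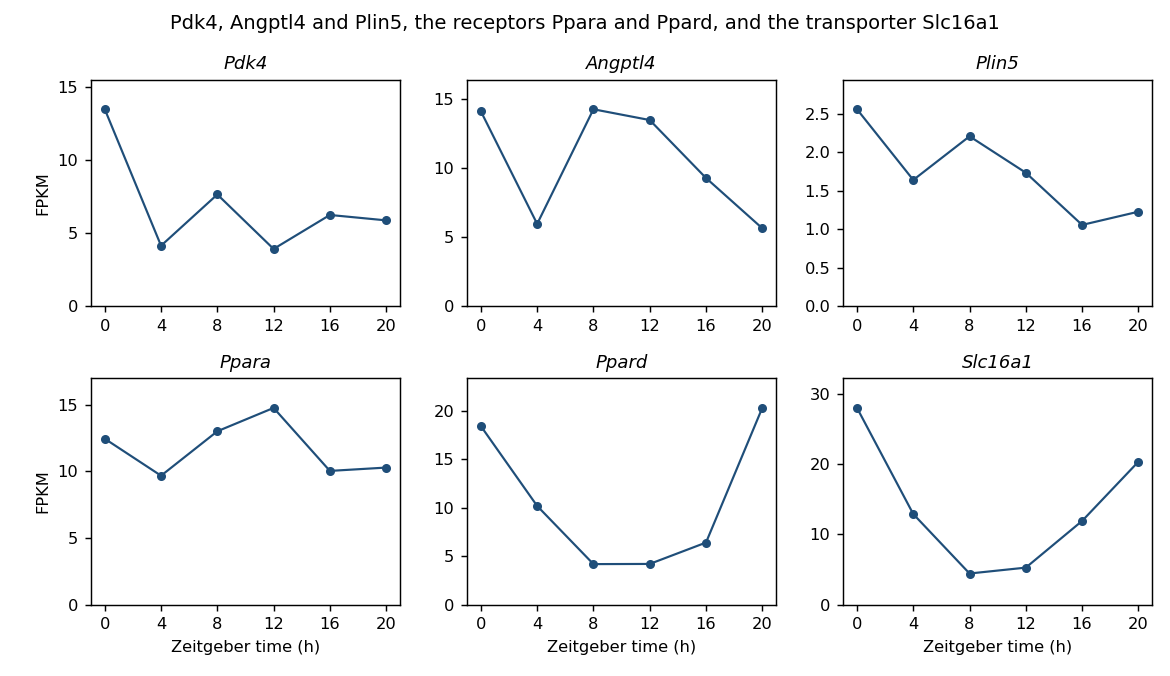
FPKM (vertical axis from 0) against zeitgeber time in hours for 3 members with large ranges, the receptors Ppara and Ppard, and the transporter Slc16a1, each point 1 library. Ppard and Slc16a1 trace a smooth course with lows at ZT8 and ZT12, whereas Pdk4 alternates between high and low neighbours.

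Beyond the members, 151 other genes of the pathway were tested, of which 39 (25.8%) had an unadjusted limma p under 0.05 against 19.1% of all genes. Of the 151, 26 had such a p with a peak from ZT0 to ZT12, against 7.94% of all genes. Another 13 had it with a peak from ZT12 to ZT24, against 11.2% of all genes. Their median amplitude was 0.13, as over all genes. The counts by list that follow are at the same unadjusted threshold and are to be read against the 19.1% of all genes. Their splits by peak time are to be read against the 7.94% and 11.2%. Ppard and the monocarboxylate and ketone body transporter Slc16a1 passed the adjusted threshold. Slc16a1 measured 28.0, 12.9, 4.45, 5.28, 11.9 and 20.3 FPKM from ZT0 to ZT20 (amplitude 1.21 ± 0.10, peak ZT22.2, limma adjusted p = 0.0318). Both peaked near ZT22, and of these 151 genes none with a peak before ZT12 passed.

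The list of peroxisomal genes and thioesterases held the largest share of unadjusted p under 0.05 among these lists, 10 of 23 or 43.5% (8 with a peak from ZT0 to ZT12 and 2 from ZT12 to ZT24). They included the cytosolic acetyl-CoA thioesterase Acot12, at 74.5, 92.1, 91.4, 72.6, 65.8 and 51.6 FPKM from ZT0 to ZT20 (amplitude 0.38, peak ZT6.44, limma adjusted p = 0.123). They also included the oxidases Acox3 (66.1 to 106 FPKM, peak ZT6.98) and Acox2 (54.1 to 94.2 FPKM, peak ZT1.06), and Hacl1 of alpha-oxidation (10.7 to 15.1 FPKM, peak ZT1.62). Acox3 was highest at ZT8 and lowest at ZT20, as Cpt1a was. Catalase, encoded by Cat, spanned 422 to 463 FPKM with an amplitude of 0.01.

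Among the other acyl-CoA synthetases 4 of 10 (40.0%) had an unadjusted p under 0.05, 3 with a peak before ZT12 and 1 after it. The medium-chain enzyme Acsm5 measured 30.7, 38.2, 37.7, 37.9, 22.0 and 20.8 FPKM from ZT0 to ZT20 (amplitude 0.47 ± 0.08, peak ZT6.89, limma adjusted p = 0.118). Acsm2, at 1916 to 2837 FPKM, peaked at ZT4.90, Acsl5 at ZT1.66 and Acsl4 at ZT12.3. The course of Acsm5, like that of Cpt1a, was high from ZT4 to ZT12 and low at ZT16 and ZT20.

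For uptake and binding, 4 of 11 genes (36.4%) had an unadjusted p under 0.05, 3 of them with a peak before ZT12. Lipoprotein lipase, encoded by Lpl, measured 126, 148, 184, 115, 120.3 and 100.1 FPKM from ZT0 to ZT20 (peak ZT6.63, limma adjusted p = 0.198), highest in the ZT8 library. The transporter Slc27a2 (1040 to 1366 FPKM) peaked at ZT8.05 and the endocytic receptor Cubn (38.4 to 48.9 FPKM) at ZT7.97, while Gpihbp1, the endothelial anchor of the lipase, was highest at ZT20 (5.87 FPKM, peak ZT20.9), as the 7 endothelial markers were. In the carnitine shuttle 2 of 8 were under 0.05, the peroxisomal octanoyltransferase Crot with a peak at ZT4.84 (144 to 233 FPKM) and the carnitine-acylcarnitine carrier Slc25a20 with a peak at ZT14.5 (11.9 to 18.8 FPKM).

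Of 22 coactivators, corepressors and regulators, 6 (27.3%) were under 0.05, 4 with a peak before ZT12. Ppargc1b, the close relative of Ppargc1a, measured 2.46, 2.79, 2.30, 1.97, 1.39 and 1.27 FPKM from ZT0 to ZT20 (peak ZT4.98, limma adjusted p = 0.175). Prkaa2, a catalytic subunit of AMP-activated protein kinase, ranged from 41.8 FPKM at ZT20 to 65.7 at ZT4. Both were lowest at ZT20, as Ppargc1a was. Esrrb, a nuclear receptor, peaked at ZT12.7 and the phosphatidate phosphatase Lpin1, also a coactivator, at ZT8.17.

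The lists named in this paragraph held shares of 12.5% to 16.7%, below the 19.1% of all genes. Other mitochondrial acyl-CoA enzymes gave 3 of 18, all with peaks before ZT12 (the peroxisomal Decr2 at ZT8.84, Hibch at ZT8.93 and Acad9 at ZT7.02). Lipid droplets and lipolysis gave 2 of 12, the triglyceride synthase Dgat2 at ZT9.06 and the lipase Pnpla2 at ZT6.21. Malonyl-CoA control gave 1 of 6, the desaturase Scd2 at ZT17.7. Control of pyruvate dehydrogenase and uncoupling gave 1 of 8, Slc25a14 at ZT19.5, and ketone body metabolism gave 1 of 8, Slc16a1.

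Of 33 other PPAR targets tested, 8 had an unadjusted p under 0.05 (5 with a peak before ZT12 and 3 after it), which is 24.2% against the 19.1% of all genes. Tsc22d3 measured 10.04, 13.7, 19.9, 54.6, 54.5 and 39.3 FPKM from ZT0 to ZT20 (amplitude 1.25 ± 0.15, peak ZT14.8, limma adjusted p = 0.0620). It is also a known glucocorticoid target. A list of 14 glucocorticoid and fasting genes gave 8 of 12 tested under 0.05, and 3 passed the adjusted threshold, Sgk1 (peak ZT16.7), Cdkn1a (peak ZT22.2) and Igfbp1 (peak ZT4.33). Pank1, which starts the synthesis of coenzyme A, ranged from 152 to 226 FPKM with a peak at ZT6.97.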

How the data were processed

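Kidneys of male mice were sequenced at 6 zeitgeber times, 1 library each. The authors deposited 1 table of FPKM per Ensembl transcript, per the file headers, which also gives the transcript length, used only for the length trend. The submitters' processing notes name bcl2fastq 2.20 and mm9. The aligner, the tool that made the FPKM and the use of strand in counting are each not given in the sources used here. Loci in the table are those of GRCm38: 27 of 31 members' GENCODE M21 extents lay inside them, so positions are on GRCm38.

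FPKM was summed per symbol, those under a mean of 1 FPKM were left out, and log2(FPKM + 1) was fitted with a cosine and a sine of 24 h in limma 3.58.1 (R 4.3.3; eBayes with trend, moderated F, Benjamini-Hochberg over 12709 genes, threshold 0.05). Folds on this scale understate low genes. Residuals (3 degrees of freedom) hold variation between libraries and misfit together. An exact permutation test used the 60 circular orders of the 6 libraries. The fit was tested on simulated data. Alternatives changed the pseudocount, filter, scaling, choice of transcript and moderation, left out each library in turn, and removed the length trend (the last was added after the data were seen). Members and lists were chosen with earlier results of these data known. The text gives all 31 members, with every time for those with an unadjusted p under 0.05 or a ratio of at least 2 (for some others also), the PPAR and RXR receptors, 4 clock genes, and up to 4 genes of smallest p per list; Cat and the markers printed were named after their values were seen. Sequences are RefSeq's, on GRCm38.p6.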

Additional observations from a re-analysis of the deposited data

How the results depend on the processing

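No member passed the adjusted limma p of 0.05 under any of the 17 alternatives (lowest 0.0703, Acot1), or 0.1 with the settings as reported. Against 36 genes of all tested, 0 passed with no filter, 2 with the most abundant transcript, 7 without the trend, 66 with robust moderation, 2 by ordinary least squares and 121 at a threshold of 0.1, and 0 to 3 passed with a library left out. At an unadjusted p under 0.05 there were 1157 to 2432 genes and 1 to 12 members with a library left out (from 2428 and 10), and 4 members by ordinary least squares; the other settings stayed within 1.5 times. Of 509 member amplitudes, 451 kept their side of an unadjusted 0.05, 46 lost it and 12 gained it. The fitted peaks of Pdk4, Acadvl, Hadh, Etfa and Acaa1a, all with an unadjusted p above 0.05, moved by 6.79 to 11.2 h under at least 1 alternative, and those of the 10 members under 0.05 by at most 1.66 h. The causes were not tested. No paired analysis was possible because each time has 1 library. Depth is unknown, and with 1 library per time neither the spread between animals nor a second cycle was measured.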
